A study of Rattus norvegicus with 6 samples.

Results

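Immediate early genes were examined in neural progenitors of the rat: *Fos*, *Fosb*, *Fosl1*, *Fosl2*, *Jun*, *Junb*, *Jund*, *Egr1*, *Ier2* and *Nr4a1*. They were listed by symbol, with no threshold on their values, and all 10 are among the 17337 gene names of the RNA-seq tables, each at 1 locus. The cells came from cortices of Sprague Dawley rats at embryonic day 14 and were cultured, without further treatment, in medium with a neural supplement, bFGF and EGF, both at 20 ng/ml, until a second passage. PolyA RNA of 2 biological replicates, A and B, was sequenced as 2 technical libraries each, named here A1, A2, B1 and B2. The cultures were primary, their cell composition was not measured here, and all libraries belong to 1 condition. Whether the replicates came from different litters is not given in the sources used here. The 2 Start-seq samples of the same cells were not analysed here.

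Immediate early genes are transcribed within minutes of a signal, without new protein synthesis, and their mRNAs are usually short-lived. In the best known route, growth factor receptors such as those for FGF and EGF activate the ERK kinases, which act on ternary complex factors bound with SRF at CArG boxes, while CREB binds cAMP response elements (CREs). Fos and Jun proteins pair through leucine zippers to form the AP-1 transcription factor. Jun proteins can pair with each other, and Fos proteins need a Jun partner. Many genes of this group are also classical examples of promoters that hold paused Pol II, the subject of the study.

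The bases before the transcription start are shown for *Egr1* and *Nr4a1*, whose mRNA differed between the replicates, and for *Jund* and *Ier2*, whose mRNA was abundant and nearly level. They are RefSeq sequences of the GRCr8 build, end at the base before the RefSeq start, and lie at chr18:26736928-26737077 (plus strand), chr7:134259988-134260137 (plus strand), chr16:18769772-18770021 (minus strand) and chr19:40399223-40399372 (plus strand). Capitals mark CArG boxes, CREs (TGACGTCA), CRE half-sites (TGACG) and EGR sites (GCGNGGGCG), each on either strand.
Egr1: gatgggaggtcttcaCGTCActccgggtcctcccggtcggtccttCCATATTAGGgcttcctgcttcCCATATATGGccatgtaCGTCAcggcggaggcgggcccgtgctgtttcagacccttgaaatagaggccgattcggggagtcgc
Nr4a1: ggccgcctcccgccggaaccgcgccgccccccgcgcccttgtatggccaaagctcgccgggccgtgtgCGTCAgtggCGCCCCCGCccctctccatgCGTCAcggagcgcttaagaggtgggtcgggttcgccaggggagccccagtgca
Jund: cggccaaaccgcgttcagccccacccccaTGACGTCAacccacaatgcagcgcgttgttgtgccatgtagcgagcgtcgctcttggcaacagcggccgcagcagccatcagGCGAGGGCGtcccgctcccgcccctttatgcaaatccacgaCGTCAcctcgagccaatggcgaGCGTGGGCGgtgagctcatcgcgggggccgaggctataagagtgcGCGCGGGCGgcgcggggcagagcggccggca
Ier2: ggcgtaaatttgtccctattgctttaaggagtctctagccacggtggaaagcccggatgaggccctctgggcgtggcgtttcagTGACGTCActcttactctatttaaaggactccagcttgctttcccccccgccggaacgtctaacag

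A promoter sequence was matched for 8 of the 10 genes, all but *Fos* and *Jun*, and motifs were searched in the 250 bases before the start. *Egr1* held 2 CArG boxes, 105 to 96 and 83 to 74 bases before the start, and none of the other 7 promoters held one, while 1.5% of all 33469 promoters did. The full CRE was found in *Jund* and *Ier2* (2 of 8, against 1.59% of all promoters). A CRE half-site, which every full CRE contains, was found in 6 of 8 (*Fosl1*, *Junb*, *Jund*, *Egr1*, *Ier2* and *Nr4a1*), against 18.2% of all promoters. EGR sites were found in 3 of 8 (*Fosl2*, *Jund* and *Nr4a1*) against 4.29%, and the TATA box letters TATAAA, on either strand, in *Fosb* and *Junb* against 12.9%. The AP-1 site TGANTCA was found in none of the 8 and in 6.34% of all promoters. These are matches of letters and not measured binding, and the RefSeq starts of GRCr8 were not compared with those of rn6, the build of the RNA-seq tables.

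The mRNA level is given as FPKM, fragments scaled to transcript length and library depth, so that levels of different genes can be compared. By the mean over replicates A and B, 9 of the 10 genes reached at least 1 FPKM, as did 60.5% of all gene names. The order of the means was *Jund*, *Ier2*, *Jun*, *Junb*, *Fos*, *Egr1*, *Fosl1*, *Nr4a1*, *Fosl2* and *Fosb*, and it spanned from 268 to 0.215 FPKM. Only some of the steps in this order exceeded the spread of the libraries. *Jund* lay above *Ier2*, *Jun* above *Junb*, *Fos* above *Egr1* and *Fosl2* above *Fosb* without overlap of any library. In the pairs *Ier2* and *Jun*, *Junb* and *Fos*, and *Fosl1* and *Nr4a1*, the first gene was higher in 3 of 4 libraries. Each pair changed places in B2 alone, which also turned the order of the means of replicate B, so these pairs were not separated. *Egr1* was above *Fosl1* in all 4 libraries although their ranges overlapped, and *Nr4a1* was above *Fosl2* in 3 of 4.

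**Figure D1:**
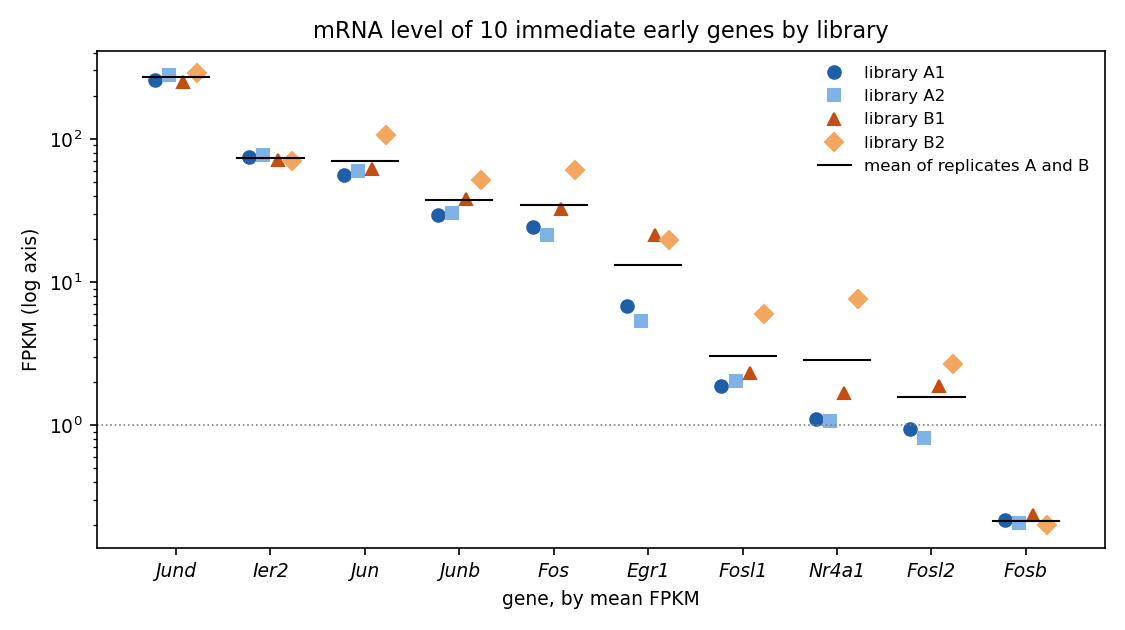
FPKM on a log axis (y) of the 10 immediate early genes (x, ordered by mean), with 1 point for each library and a bar at the mean of replicates A and B; the dotted line is at 1 FPKM. *Jund*, *Ier2* and *Fosb* are nearly level over the libraries, *Egr1* is higher in both B libraries, and *Jun*, *Fos*, *Fosl1* and *Nr4a1* are highest in B2.

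Among the Jun family, *Jund*, the member known for steady expression in growing and resting cells, was by far the most abundant. It lies at chr16:20485028-20486707 (minus strand) in rn6, the build of all gene positions that follow. Libraries A1 and A2 gave 258 and 281 FPKM, B1 gave 248 and B2 gave 286. The libraries of the replicates overlapped, and the mean was 268 ± 1.74 (SD over replicates, n = 2), which ranked 331 of 17337 gene names.

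*Jun*, the founding AP-1 subunit, at chr5:114011186-114014277 (minus strand), had 55.5 and 59.5 FPKM in A1 and A2 and 61.4 and 105 in B1 and B2. B2 stood above the other 3 libraries, and B1 was close to replicate A. The mean was 70.4 ± 18.4 FPKM (SD, n = 2). *Junb*, an AP-1 subunit that is itself strongly inducible, at chr19:26092972-26094756 (minus strand), had 29.4, 30.1, 38.2 and 51.5 FPKM in A1, A2, B1 and B2. Both B libraries were higher than both A libraries, and the mean was 37.3 ± 10.7 FPKM (SD, n = 2).

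Summed over the family, Jun mRNA came to 343 and 370 FPKM for A1 and A2, 348 for B1 and 443 for B2. *Jund* made up 75.6% of the sum for replicate A against 67.6% for B (mean 71.6% ± 5.66, SD, n = 2). *Jun* made up 16.1% and 21.1%, and *Junb* 8.34% and 11.3%. The share of *Jund* was lowest in B2, at 64.6%, where *Jun* held 23.8%.

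In the Fos family *Fos* itself was the main transcript. *Fos*, the classical growth factor response gene, lies at chr6:109300433-109303299 (plus strand). Its level was 24.2 and 21.2 FPKM for A1 and A2, then 32.1 for B1 and 60.9 for B2. Both B libraries lay above both A libraries, B2 was 1.90-fold above B1, and the mean was 34.6 ± 16.8 FPKM (SD, n = 2).

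The Fos-related genes were far lower. *Fosl1*, which encodes Fra-1, at chr1:220826560-220835066 (plus strand), had 1.89, 2.02, 2.30 and 5.93 FPKM in A1, A2, B1 and B2. *Fosl2*, which encodes Fra-2, at chr6:25598936-25616995 (minus strand), had 0.943, 0.809, 1.89 and 2.68. The means were 3.04 ± 1.53 and 1.58 ± 0.998 FPKM (SD, n = 2). For both, the libraries of A and B did not overlap, but *Fosl1* stood out in B2 alone whereas *Fosl2* was already higher in B1. *Fosb*, at chr1:80214691-80221417 (minus strand), was near the lower end of what could be measured, with 0.217, 0.207, 0.237 and 0.200 FPKM (mean 0.215 ± 0.00465, SD, n = 2), which rests on a mean depth of only 5.28, 4.70, 5.78 and 1.37 reads over its transcripts.

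The summed Fos family came to 27.3 and 24.2 FPKM for A1 and A2, 36.5 for B1 and 69.7 for B2. The sum was highest in B2, while *Fos* held 88.8%, 87.5%, 87.9% and 87.3% of it in A1, A2, B1 and B2. The small shares of the other members varied more, *Fosl1* between 6.31% and 8.51%, *Fosl2* between 3.34% (A2) and 5.18% (B1) and *Fosb* between 0.287% (B2) and 0.855% (A2). Jun family mRNA exceeded Fos family mRNA by a ratio of 12.6 and 15.3 for A1 and A2, 9.52 for B1 and 6.36 for B2, lowest where *Fos* was highest.

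**Figure D2:**
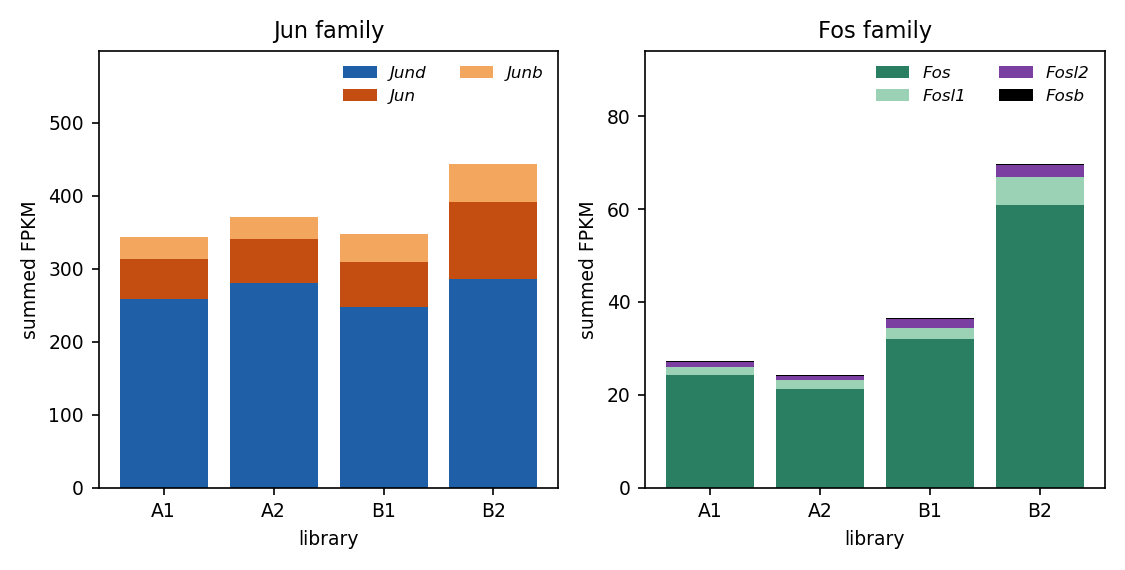
Summed FPKM (y, linear, from 0) of the Jun family (left) and the Fos family (right) in each library (x), with the genes stacked. *Jund* is the main part of the Jun bars at 64.6% to 75.8%, *Fos* is 87.3% to 88.8% of the Fos bars, and the Fos family sum is highest in B2 at 69.7 FPKM.

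Outside AP-1, *Egr1* and *Nr4a1* differed most between the replicates. *Egr1*, a zinc finger transcription factor and a standard readout of ERK signalling, lies at chr18:27657903-27660101 (plus strand). A1 and A2 gave 6.77 and 5.33 FPKM, against 21.1 for B1 and 19.6 for B2. The B libraries differed by 0.10 on the log2(FPKM + 1) scale, both were far above replicate A, and replicate B was 3.36-fold higher (mean 13.2 ± 10.1 FPKM, SD, n = 2).

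*Nr4a1*, an orphan nuclear receptor induced by many signals, lies at chr7:142912309-142920215 (plus strand). A1, A2 and B1 gave 1.10, 1.07 and 1.68 FPKM, and B2 gave 7.59. Here B2 was 4.52-fold above B1, and the higher level of replicate B rested mostly on that 1 library (mean 2.86 ± 2.51 FPKM, SD, n = 2). *Ier2*, which encodes a small nuclear protein, at chr19:25774146-25775670 (minus strand), showed no such pattern. Its FPKM was 74.4, 77.2, 70.6 and 69.4 in A1, A2, B1 and B2, slightly lower in both B libraries, with a mean of 72.9 ± 4.09 (SD, n = 2).

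The replicates were then compared across all genes. No p-value was computed, because each side is 1 culture and the technical libraries are not biological replicates. A gene was counted as differing where its mean was at least 1 FPKM, its replicate means differed by at least 1 in log2(FPKM + 1), a scale on which low genes differ by less than their fold, and the libraries of A and B did not overlap. By this rule 3 of the 9 immediate early genes tested were higher in replicate B, *Egr1* by 1.60, *Nr4a1* by 1.44 and *Fos* by 1.0, and none was lower. *Jun*, *Junb*, *Fosl1* and *Fosl2* were higher in B by 0.53, 0.58, 0.79 and 0.81, short of the rule, while *Jund* was at -0.01 and *Ier2* at -0.11. Over all 10481 genes tested 6.2% were counted, 4.78% as higher in B and 1.42% as lower. The median difference was 0.68 over the 10 genes and -0.03 over all genes tested.

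These counts depend on library B2. Without it *Egr1* alone was counted, at 1.65, as were 5.48% of all genes, while *Fos* came to 0.48 and *Nr4a1* to 0.36, and the median of the 10 genes fell from 0.68 to 0.25. *Fos* lies at the threshold, with 0.94 when log2 values were averaged in place of FPKM and 0.97 with TPM, so it was not counted in either case. Without a minimum difference, 7 of the 9 genes lay higher in both B libraries than in both A libraries, against 28.1% of all genes tested, and *Ier2* lay lower, as did 32% of all genes.

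The technical libraries give the scale of these differences. Between A1 and A2 none of the 9 genes differed by 0.58 or more on the log2(FPKM + 1) scale, about 1.5-fold, against 1.59% of all genes, and the largest difference was 0.30 (*Egr1*). Between B1 and B2, 4 of the 9 were higher in B2 by at least this much, *Nr4a1* (1.68), *Fosl1* (1.07), *Fos* (0.90) and *Jun* (0.77), against 8.27% of all genes tested. None was lower in B2 by this much, against 4.73%. *Egr1* was at -0.10. For *Fos*, *Fosl1*, *Jun* and *Nr4a1* B2 thus differed more from B1 than B1 did from replicate A, by 0.48, 0.16, 0.09 and 0.36.

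B2 was also the shallowest library. The coverage that corresponds to 1 FPKM was 6.83 in B2 against 22.7 to 24.4 in the other libraries. The mean depth in B2 was still 416 reads over the transcripts of *Fos*, 721 for *Jun*, 134 for *Egr1*, 51.9 for *Nr4a1* and 40.5 for *Fosl1*.

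**Figure D3:**
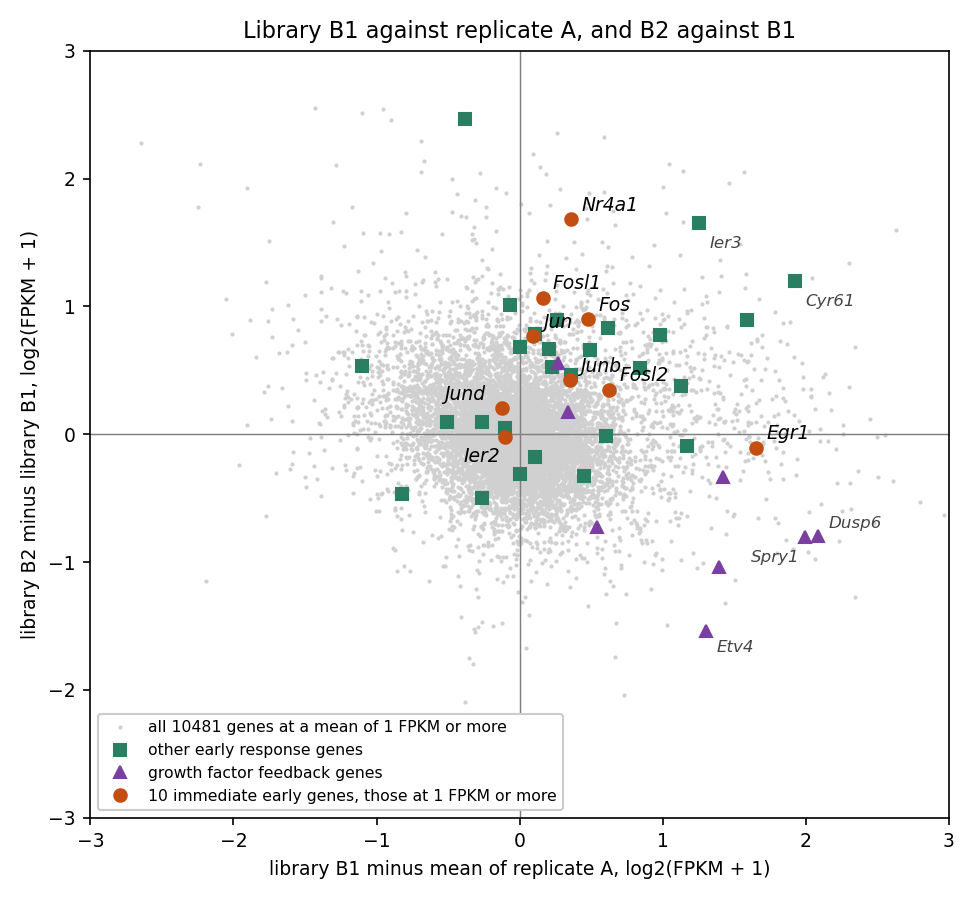
Difference between library B1 and the mean of replicate A (x) and between B2 and B1 (y), both in log2(FPKM + 1), for all genes at a mean of at least 1 FPKM (grey), the immediate early genes (circles), other early response genes (squares) and growth factor feedback genes (triangles). *Egr1* lies far right at 1.65 and near 0 on the y axis, *Nr4a1*, *Fosl1*, *Fos* and *Jun* lie high, and *Dusp6*, *Spry1* and *Etv4* lie right and low; B1 enters both axes, and 17 genes lie outside them.

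Cell type markers were read in the same libraries. All 8 neural progenitor markers had a mean above 1 FPKM, from *Pax6* (33.9) to *Fabp7* (11840), and *Fabp7* and *Hes5* were counted as lower in B. Their summed FPKM was 20949 and 23046 for the A libraries and 10054 and 10810 for the B libraries, most of it *Fabp7* and *Vim*. Of the 8, 4 lay lower in both B libraries than in both A libraries (32% of all genes tested), 4 overlapped and 0 lay higher, with a median difference of -0.33, and *Nes*, *Vim* and *Slc1a3* had a higher mean in B. Without *Fabp7* the sums were 4149 and 4489 FPKM for the A libraries, 3534 for B1 and 5324 for B2, and without *Fabp7* and *Vim* they were 1267 and 1318, 882 and 866. Of 7 neuron markers, from *Neurod1* (0.292) to *Tubb3* (118), 5 could be tested and none of these was counted, and the sum of all 7 lay between 139 and 180 FPKM. The 5 endothelial markers, from *Cldn5* (0.081) to *Cdh5* (0.381), and the 5 microglial markers, from *Cx3cr1* (0.004, listed at 0 in all libraries but B1) to *Aif1* (0.719), all had means below 1 FPKM. Even so, 4 of 5 endothelial markers lay higher in both B libraries than in both A libraries, with sums of 0.670, 0.687, 0.795 and 2.37 FPKM for A1, A2, B1 and B2, highest in B2 as *Fos*, *Fosl1* and *Nr4a1* were. For microglia these were 2 of 5, with sums of 0.393, 0.626, 1.13 and 1.34. No background share was computed for genes below 1 FPKM, so neither count has one to be read against. Among the 4 endothelial markers the smallest gap was in *Kdr*, with 0.1531 FPKM in B1 against 0.1526 in A1. The 12 markers of meningeal and mesenchymal cells were all higher in both B libraries than in both A libraries (28.1% of all genes tested), and 11 of them were counted as higher in B (4.78% of all genes tested), *Col1a1*, *Col1a2*, *Col3a1*, *Dcn*, *Lum*, *Ptgds*, *Foxc1*, *Foxc2*, *Twist1*, *Pdgfra* and *Slc6a13*. Without B2, 8 were counted, all but *Ptgds*, *Foxc2* and *Slc6a13* of these. Means ran from *Foxc2* (4.37) to *Col3a1* (486), and none was at 0. Their sum was 685 and 665 FPKM for the A libraries, 2569 for B1 and 3401 for B2. Between B1 and B2, *Ptgds* differed from 8.18 to 292 FPKM and *Foxc1* from 29.4 to 115. The mesenchymal, endothelial and microglial sums were higher in both B libraries than in both A libraries, as *Egr1*, *Fos* and *Nr4a1* were. They did not share 1 pattern. The mesenchymal sum was already far above replicate A in B1, as *Egr1* was. The endothelial sum stood out in B2, as *Nr4a1* did. B2 was also the shallowest library and the highest in *Jun*, *Fos*, *Fosl1* and *Nr4a1*. The part of cell types and of depth in these differences was not tested. In bulk RNA more cells of a type cannot be told apart from more RNA per cell.

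A list of 30 other early response genes was read in the same way. Like the other lists, it was drawn up by hand with earlier results of these data known. Its comparison with all genes is therefore descriptive only. Of the 27 tested, 8 were counted as higher in replicate B and 1 as lower, where 4.78% and 1.42% of all genes tested were. The median was 0.54 over the 30 and -0.03 over all genes tested, and without B2 it was 0.16 over the 30. The matricellular genes *Cyr61* and *Ctgf*, which are also targets of YAP and SRF, differed by 2.65 and 2.11. *Cyr61* had 15.4, 16.8, 63.9 and 148 FPKM, in the order A1, A2, B1 and B2, and *Ctgf* had 5.48, 6.13, 19.5 and 37.2. Both were highest in B2, but B1 already lay above replicate A by 1.92 and 1.59 in log2(FPKM + 1). Of the 27 genes tested 12 were higher in B2 than in B1 by at least 0.58 and 0 lower, against 8.27% and 4.73% of all genes tested.

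*Ier3*, a stress-induced survival gene, had 7.37, 7.17, 18.7 and 61.0 FPKM, and *Plk2*, a polo-like kinase gene, had 18.3, 15.8, 39.6 and 37.2, which, like *Egr1*, was nearly equal in B1 and B2. The Kruppel-like factor genes *Klf2*, *Klf4* and *Klf6* were higher in B by 1.42, 1.33 and 1.12, and *Gadd45b* by 1.09. *Btg2*, an antiproliferative gene expressed in neurogenic progenitors and the most abundant of the list, went the other way. A1 and A2 gave 196 and 210 FPKM and B1 and B2 gave 115 and 82.6, a difference of -1.03. *Egr4* was the lowest of the list, with a mean of 0.127 FPKM. *Atf3*, a stress-induced relative of AP-1, was not counted, since B1 (2.04 FPKM) lay below A1 and A2 (3.04 and 2.90) while B2 had 15.8. Without B2, 25 of the 30 could be tested and 6 were counted, as were 5.48% of all genes then tested. These 6 were *Cyr61*, *Ctgf*, *Ier3*, *Klf4* and *Plk2* as higher in B and *Egr3* as lower.

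Genes that FGF and ERK signalling induce as its own inhibitors or effectors were mostly highest in B1. Of 8 tested among 10 listed, *Dusp6*, *Spry1* and *Spry4* were counted as higher in replicate B and none as lower, against the same 4.78% and 1.42% of all genes. Without B2 there were 5, *Etv4* and *Etv5* besides these, and none lower, against 5.48% of all genes in either direction. *Dusp6*, a phosphatase for ERK, had 7.75 and 7.97 FPKM for A1 and A2, 36.6 for B1 and 20.6 for B2. *Spry1*, a receptor signalling inhibitor, had 7.41, 7.70, 33.1 and 18.6, and *Spry4* had 1.83, 1.84, 6.60 and 5.02. All 3 were highest in B1, whereas *Fos*, *Jun*, *Fosl1* and *Nr4a1* were highest in B2. *Egr1* was nearly equal in B1 and B2, with a difference of -0.10 in log2(FPKM + 1) against -0.80 for *Dusp6* and *Spry1*. Over this list 5 of 8 were lower in B2 than in B1 by at least 0.58 and none was higher by as much, against 4.73% lower and 8.27% higher over all genes tested. *Spry2* was the most abundant, with 84.8 FPKM, and *Dusp5* the lowest, with 0.575.

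Genes upstream of the immediate early response were read in the same way. Of 22 tested among 25 receptors, Ras and MAP kinase components, SRF and ternary complex factors and CREB relatives, none was counted in either direction, which at 6.2% over all genes tested is near the background, and the median difference was -0.10. The 3 others, *Braf*, *Mkl1* and *Mkl2*, were not analysed here. *Map2k2*, a kinase for ERK, was the most abundant, with 131, 134, 150 and 146 FPKM, and *Rps6ka1* the lowest, with a mean of 1.56. *Egfr*, the receptor for the added EGF, had 15.2, 14.4, 7.89 and 6.95 FPKM. It was lower in both B libraries, and the replicate means differed by -0.91 in log2(FPKM + 1). Among the FGF receptor genes *Fgfr1* had 88.1, 77.2, 79.7 and 76.4, *Fgfr2* had 39.7, 39.8, 21.3 and 34.9, and *Fgfr3* had 63.7, 47.6, 34.2 and 25.7. *Fgfr2* and *Fgfr3* were lower in both B libraries, with differences of replicate means of -0.49 and -0.87, and *Fgfr1* was at -0.08. For *Fgfr2* this rested mostly on B1, which was at -0.87 against replicate A, while B2 was 0.69 above B1. Of 11 tested among 12 partners of AP-1 and corepressors of Egr proteins, none was counted, likewise near the background, and the median difference was 0.16. Without B2 that median was -0.0062 and 1 gene, *Batf3*, was counted, as lower in B. *Atf4*, the most abundant of these, had 202, 206, 139 and 180 FPKM, and *Batf* the lowest level, with a mean of 0.0489. *Nab2*, a corepressor of Egr proteins, had 14.3, 14.1, 23.0 and 25.0 FPKM, above replicate A in both B libraries as *Egr1* was, with a difference of 0.72.

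**Figure D4:**
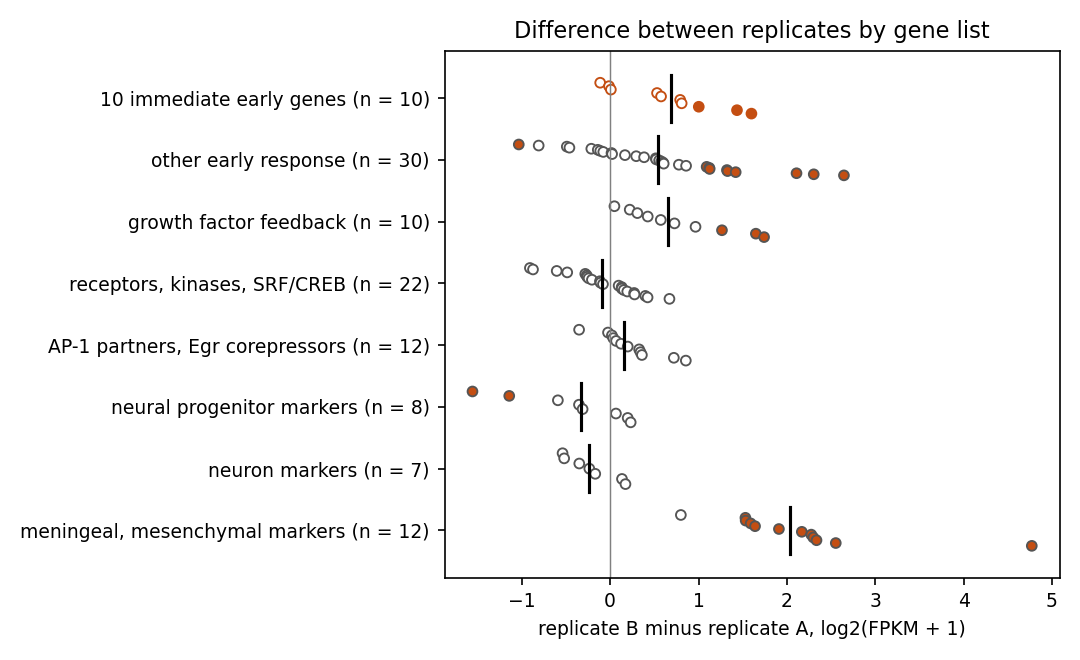
Difference of replicate B minus A in log2(FPKM + 1) (x) for each gene of 8 lists (y, circles), filled where the gene was counted as differing, with a bar at the median of each list. The median is 0.68 for the 10 immediate early genes (0.25 without B2), 0.54 for other early response genes (0.16 without B2), 0.65 for growth factor feedback genes, -0.10 for upstream genes and 2.04 for meningeal and mesenchymal markers.

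The genes most like *Fos* over the 4 libraries were named by the Euclidean distance between log2(FPKM + 1) values, each less its own mean. The nearest 5 of the other genes at a mean of at least 1 FPKM were *Cyp1b1* (distance 0.0880), *Ston1* (0.0957), *Scg2* (0.102), *Pim1* (0.110) and *Samd14* (0.111). *Pim1*, which encodes a serine/threonine kinase, had 4.07, 3.60, 5.41 and 10.6 FPKM in the same order of libraries. Among the immediate early genes *Fosl1* was nearest to *Fos*, at place 100, then *Fosl2* at place 221, *Jun* at 358, *Junb* at 407 and *Nr4a1* at 656, while *Egr1* was at place 2613, *Jund* at 3740 and *Ier2* at 5776. With 4 libraries in technical pairs, such likeness is weakly determined.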

How the data were processed

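PolyA RNA-seq of 4 libraries (replicates A and B, 2 technical libraries each) was analysed. The authors aligned reads to rn6 with STAR, and deposited, per library, the coverage, FPKM and TPM of each RefSeq gene, in tables laid out as StringTie writes them, and the methods also name Rsubread. Tool versions are not given in the sources used here. The deposited coverage signal is mean read depth, unscaled between libraries, and deposited TPM share a fixed total. The name of the table of B2 carries another run prefix than those of the other libraries.

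FPKM was summed by gene name and averaged over technical libraries, then over replicates. Differences were taken on the log2(FPKM + 1) scale. Total read numbers and counts were not used, so no counting intervals are given. The rule for differing genes was also run on simulated data, and no result given here rests on that run. The 10 genes, the lists, which were drawn up by hand, and the motifs were chosen with earlier results of these data known, as were the rule and the alternatives. From each list were named the genes counted as differing and those with the highest and lowest mean; for *Fos*, the 5 genes nearest over the libraries; other names, among them *Egr3*, *Atf3*, *Egfr*, *Fgfr1*, *Fgfr2*, *Fgfr3*, *Batf3*, *Nab2*, *Etv4*, *Etv5*, *Nes*, *Vim* and *Slc1a3*, were chosen after their values were seen. Alternatives were TPM, a pseudocount of 0.1, rescaled libraries, other thresholds, 1 library or replicate left out, and averaged log2 values. Leaving out B2 and averaging log2 values were chosen after seeing the data. Promoter sequences are from RefSeq (GRCr8). Python 3.11.15, pandas 2.3.3, numpy 2.4.6 and matplotlib 3.10.9 were used.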

Additional observations from a re-analysis of the deposited data

Results flagged for a closer look

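In some values 1 library stood apart from the other 3, with a gap to its neighbour that made up nearly the whole range. This held for 10 of the 50 values examined, the depth and the genes named by rule. Chance gives about 1 in 20 where samples are independent, which technical pairs are not. In B2 these were the depth, at a coverage of 6.83 per FPKM, and *Nr4a1* with 7.59 FPKM, *Fosl1* with 5.93 FPKM and *Jun* with 105 FPKM, which have their other libraries in the report. Among markers of other cell types, also in B2, were *Ptgds* with 292 FPKM (3.86 to 8.18 in the others), *Foxc1* with 115 FPKM, *Foxc2* with 10.7 FPKM and *Cdh5* with 1.0 FPKM. In B1 were *Pax6*, with 22.1 FPKM against 37.3 in B2 and 39.3 in A1, and *Cx3cr1*, with 0.016 FPKM and listed at 0 in the others.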

How the results depend on the processing

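Of 130 alternatives computed for 26 results, none turned a direction of a gene counted as differing, and 120 left the value within its spread or, for a count, within 1.5 times. For levels and the *Jund* share the spread was the SD of the replicates, which leaving out 1 of 2 replicates cannot exceed. For the median of B2 minus B1 it was the median difference between A1 and A2, 0.081. For differences of B minus A it was the SD between library 1 alone and library 2 alone. Those 2 settings are themselves among the alternatives, so they could hardly fall outside it. For the median this spread was wide, at 0.46. The median of 0.68 that came to 0.25 without B2 is therefore among the 120. So are *Nr4a1*, which went from 1.44 to 0.36 without B2, and *Fos*, which went from 1.0 to 0.48. For these differences the 120 are thus a weak measure of stability. The count of immediate early genes that differ, 3 as reported, was 5 with a pseudocount of 0.1, 5 at a difference of 0.58, 8 with no minimum difference, 5 with library 2 of each replicate only, and 1 with library 1 of each only or with B2 left out. It was also 2 with TPM and 2 with averaged log2 values, where *Fos* was lost. The count of other early response genes, 9 as reported, was 14 at a difference of 0.58 and 21 with no minimum difference; with B2 left out it was 6. The cause was not tested, but lower thresholds count more genes by construction.

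The median of the 10 genes was 0.27 with library 1 and 0.92 with library 2 of each replicate, against 0.68, and *Jund* was at -0.12 with B2 left out and *Fosl2* at 1.29 with a pseudocount of 0.1. With 1 replicate left out, the number of genes at 1 FPKM or more ranged from 8 to 9 and the share of *Jund* in the Jun family from 67.6% to 75.6%. Rescaling the libraries left the counts of immediate early and other early response genes at 3 and 9, with 658 in place of 650 over all genes. No paired analysis was possible because the libraries form 1 condition and no test was made. The precision of *Fosb* is limited by its low coverage, and B2 holds 28.1% of the depth of B1.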
